A study of Homo sapiens with 7 samples.

Results

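Most of the genes described here encode factors that start and drive protein synthesis on cytosolic ribosomes, though EEF2K and EEF1E1, for example, do not. All carry symbols of the eukaryotic initiation factors (EIF1 to EIF6) or elongation factors (EEF1 and EEF2). They were taken by symbol from the table of normalized expression, leaving out the kinases of eIF2 (EIF2AK), antisense transcripts and symbols ending in P and digits, and each symbol was counted once. Of 85 symbols that matched the opening letters, 4 EIF2AK genes, 1 antisense gene, 21 pseudogenes and the 3 eIF4E-binding protein genes were left out. This gave 56 genes of 16686 in the table, 48 for initiation and 8 for elongation. All 56 passed the filter used for testing, a mean signal of at least 1 over the 7 libraries, as did 13072 of the 16686. EIF1AY is counted among them, but its values are not given.

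RNA-seq was performed in N/TERT2G, a line of human keratinocytes immortalized with telomerase, transfected with pooled small interfering RNAs (siRNAs) against both YAP1 and TAZ (siYT, 4 libraries, A to D) or with control siRNA (siCON, 3 libraries, A to C). Both groups received 8 pmol of siRNA per cm2, and RNA was collected after 48 h. YAP1 and TAZ (gene symbol WWTR1) are co-activators that the Hippo pathway restrains and that bind DNA through TEAD factors, and the comparison asks which transcripts depend on the pair. All libraries come from a single immortalized line, so they do not represent different donors.

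Initiation brings the small ribosomal subunit, the initiator tRNA and the mRNA together. eIF2 delivers the tRNA, eIF3 is the large scaffold on the small subunit, the eIF4 factors recognise the cap and unwind the leader, and eIF1, eIF1A, eIF5 and eIF5B settle the start codon and join the subunits. In elongation eEF1A delivers aminoacyl-tRNA, the eEF1B complex recharges eEF1A with GTP, and eEF2 moves the ribosome along the mRNA. Many mRNAs for elongation factors, eIF3 subunits and ribosomal proteins begin with a C followed by a run of pyrimidines, the 5′ terminal oligopyrimidine (TOP) motif, through which mTORC1 and LARP1 control their translation and stability. In keratinocytes, protein synthesis is tuned between proliferation in the basal layer and differentiation above it.

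The start sites of some members, picked with their results known, are shown because they are where a TOP motif would lie. Each is 30 bases from the RefSeq promoter table (GRCh38.p14), read 5′ to 3′ on the strand of the gene, 15 before the annotated start and 15 from it. Capitals mark a C at the start and the pyrimidines that follow it without a break, up to the end of the window. Of 13 members with a C and at least 4 pyrimidines there, the 7 called lower and EIF3F, which was not called, are shown. The others, EIF2S3, EIF2S3L, EIF2D, EIF3M and EIF4A2, were not called and are not shown, so the windows do not stand for all members.
EEF1A1 (chr6:73521018-73521047, minus strand): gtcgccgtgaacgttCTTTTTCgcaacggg
EEF1B2 (chr2:206159880-206159909, plus strand): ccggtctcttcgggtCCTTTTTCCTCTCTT
EEF2 (chr19:3985449-3985478, minus strand): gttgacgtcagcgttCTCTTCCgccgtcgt
EIF3D (chr22:36529152-36529181, minus strand): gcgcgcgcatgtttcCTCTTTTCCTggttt
EIF3K (chr19:38619173-38619202, plus strand): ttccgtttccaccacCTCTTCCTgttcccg
EIF3F (chr11:7987322-7987351, plus strand): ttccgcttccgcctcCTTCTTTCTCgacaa
EIF4B (chr12:53006441-53006470, plus strand): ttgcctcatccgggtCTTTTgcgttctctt
EIF2A (chr3:150546772-150546801, plus strand): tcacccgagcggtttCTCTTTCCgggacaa

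For contrast, a called elongation factor, a called eIF3 subunit and 2 members that were higher in siYT, EEF2K and EIF4G2, have a purine at the annotated start. The elongation factor, EEF1G, is nonetheless on the list of known TOP mRNAs used below. Its annotated A is followed directly by CTTT, so its lack of the letters depends on the annotated position. In these windows the capital marks only the first base of the transcript. EIF4A1, EIF5A, EIF5AL1 and EIF6 also lacked the C with at least 4 pyrimidines, were called lower and are not shown.
EEF1G (chr11:62573877-62573906, minus strand): tctcccgggcggcttActttgcggcagcgc
EIF3I (chr1:32222392-32222421, plus strand): accttttccggtcttActcacgttgcggcc
EEF2K (chr16:22206263-22206292, plus strand): tgcccgcccgcttctGctcaacctagacca
EIF4G2 (chr11:10807982-10808011, minus strand): gaggttgtcggaagcActtccctaacttgc

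Values are the deposited signal per gene after trimmed mean of M values (TMM) scaling of the libraries, on a scale near counts per 1e6 reads (CPM). A gene is called changed at an adjusted p under 0.05 (limma on log2(signal + 0.5), Benjamini-Hochberg over the 13072 genes) together with a change of 1.5-fold or more, which the study also required. Library totals were 866098 to 884761 in siYT and 941281 to 955106 in siCON, from approximately 20700000 to 23900000 reads per library. YAP1 had a signal of 65.2, 64.5, 76.2 and 68.1 in siYT, against 231, 258 and 243 in siCON (log2 fold change −1.83 ± 0.06 SE, adjusted p = 1.60e-12). WWTR1 had 4.90, 6.0, 6.30 and 5.19 in siYT, against 34.4, 36.9 and 37.3 in siCON (−2.59 ± 0.09, adjusted p = 2.26e-12). A first component with 88.4% of the variance separated the groups. All 7 keratinocyte markers were expressed, with KRT5 at 21037 to 23481 in siYT and 20678 to 21256 in siCON. Of the 7, TP63 (log2 fold change 0.61), ITGA6 (0.63) and COL17A1 (0.60) were called higher in siYT and ITGB4 (−0.84) lower. The suprabasal markers KRT1, KRT10 and DSG1 were called higher in siYT and IVL was not (3 of 4 called), with KRT10 at 1219 to 1648 in siYT against 112 to 171 in siCON. Their part in the results that follow was not tested. Of 6 fibroblast markers, 5 were in the table and summed to 186 to 193 in siYT and 227 to 256 in siCON, mostly COL1A1 and DCN, of which DCN (−0.68) was called lower. COL3A1 was called lower at 0.272 to 0.392 in siYT against 1.94 to 2.12 in siCON, and COL1A2 higher at 1.75 to 2.39 in siYT against 0.946 to 1.06 in siCON. Of 4 melanocyte, 3 endothelial and 3 immune markers, only 1 of each was in the table. The melanocyte marker PMEL and the endothelial marker VWF were under 2 in every library. The immune marker CD68 was 47.2 to 58 in siYT and 45.5 to 51.4 in siCON. The part of these markers was not tested either.

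Most translation factor genes were lower after knockdown of YAP1 and TAZ, and the elongation factors were the furthest down. Of the 56 members, 19 were called lower (33.9%), 1 was called higher (EEF2K, 1.79%) and 36 were not called. Over all genes tested, 13.2% were called lower and 14.1% higher. On adjusted p alone, 44 members were lower (78.6%) and 3 higher, against 34.9% and 34.7% of all genes. In 46 of the 56 (82.1%) every siYT library lay below every siCON library, which held for 34.7% of all genes. The median log2 fold change was −0.43 over the members and 0.003 over all genes. These counts are a description of a list chosen by name, with no test over the list.

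**Figure D1:**
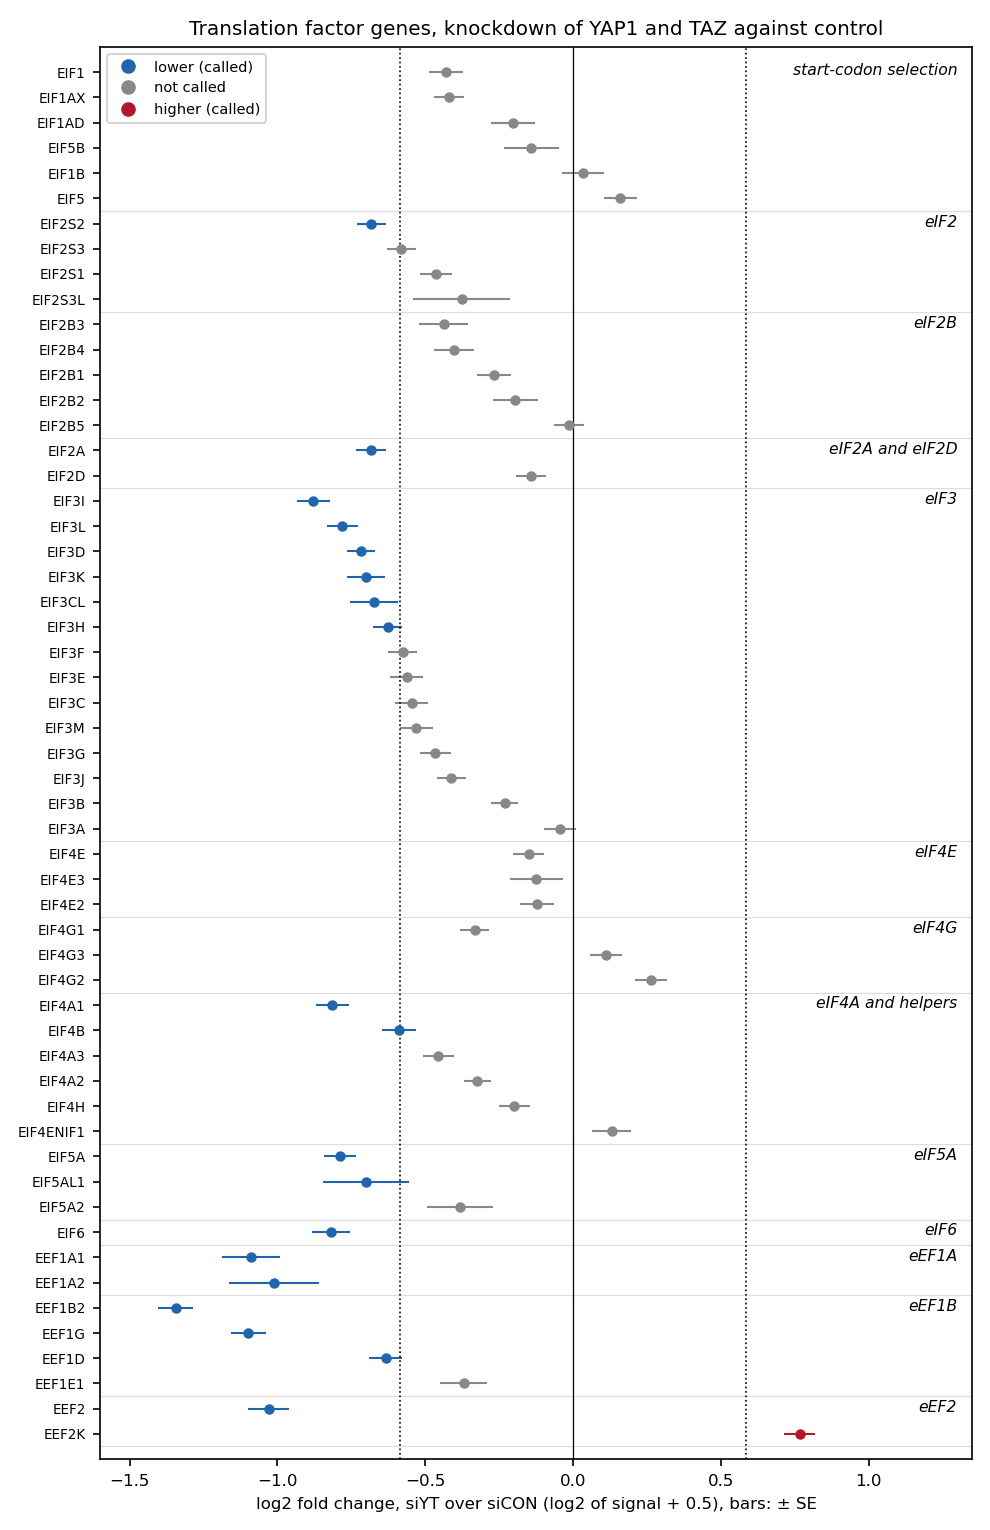
Log2 fold change of siYT over siCON (x axis, log2 of signal + 0.5) for 55 translation factor genes grouped by role (y axis, EIF1AY left out), with points for the limma estimate and bars for ± 1 SE. Dotted lines mark a 1.5-fold change, blue points the genes called lower and the red point the gene called higher. Most points lie left of 0, from −1.34 for EEF1B2 at the far left, and EEF2K at 0.77 is the only one past the line on the right.

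Scaling moves these counts. With library totals set equal instead of TMM the median of all genes shifted by 0.107, the genes called became 1278 lower and 2343 higher, against 1732 and 1847 with TMM, and the members became 13 lower and 1 higher. The libraries are of bulk RNA, so a smaller share of cells expressing a gene and less of its RNA per cell cannot be told apart.

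The members together made up 2.30 ± 0.03% of the library signal in siYT (SD, n = 4) and 3.79 ± 0.15% in siCON (SD, n = 3). EEF1A1 alone held 0.957 ± 0.029% in siYT and 1.89 ± 0.12% in siCON, and the 48 initiation genes 0.922 ± 0.012% in siYT and 1.12 ± 0.02% in siCON. Most of the difference in the family's share lay in EEF1A1 and the other elongation genes.

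Among the genes with elongation symbols, 6 of 8 were called lower and 1 higher, with a median log2 fold change of −1.02. The gene called higher, EEF2K, and the gene not called, EEF1E1, do not encode elongation factors themselves. EEF1A1 (chr6:74225473-74233520 on hg19), the main carrier of aminoacyl-tRNA and the most abundant member per length, had 8482, 8818, 8063 and 8213 in siYT, against 17985, 19128 and 16574 in siCON. The groups did not overlap, and the 2.13-fold lower level in siYT (log2 fold change −1.09 ± 0.10, adjusted p = 8.55e-08) was larger than the spread within either group. Per kilobase of transcript its mean signal was 2390.0 in siYT and 5096 in siCON, above every other member. The authors' quantification could divide its reads with near-identical pseudogenes. Of these, 7 are in the table, and they summed to 111 in siYT and 237 in siCON. EEF1A1 with its pseudogenes gave a siYT over siCON ratio of 0.469, and so did the pseudogenes alone.

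EEF1A2, the form of eEF1A made mainly in muscle and neurons, was near the filter. Its signal was 0.664, 0.667, 0.739 and 0.658 in siYT, against 2.12, 1.66 and 1.90 in siCON (log2 fold change −1.01 ± 0.15, adjusted p = 2.29e-05). The groups did not overlap, but the call ended with a pseudocount of 2 (−0.54).

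The exchange factor of eEF1A fell with it. EEF1B2 (chr2:207024309-207027652), the catalytic eEF1Bα subunit, was the member that fell furthest, with 113, 112, 114 and 101 in siYT, against 287, 296 and 258 in siCON (log2 fold change −1.34 ± 0.06, adjusted p = 2.35e-11). EEF1G (chr11:62327073-62342401), the structural eEF1Bγ subunit, had 941, 954, 869 and 901 in siYT, against 2055, 1947 and 1885 in siCON (−1.10 ± 0.06, adjusted p = 2.50e-10). Every siYT library was below every siCON library for both. For EEF1B2, siYT D (101) and siCON C (258) were the lowest of their groups. EEF1D, the other exchange subunit, was 305 ± 15 in siYT and 473 ± 28 in siCON (SD, n = 4 and 3), a log2 fold change of −0.63 ± 0.06 (adjusted p = 6.94e-08). Its call ended with equal library totals (−0.52) and with the length trend removed (−0.54). EEF1E1, which encodes a scaffold protein of the multi-tRNA synthetase complex despite its symbol, was not called, with 10.7 ± 0.56 in siYT and 13.9 ± 0.73 in siCON.

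eEF2 and the kinase that switches it off moved in opposite directions. EEF2 (chr19:3976054-3985467), the translocase, had 2255, 2295, 2204 and 2388 in siYT, against 4923, 4584 and 4503 in siCON (log2 fold change −1.03 ± 0.07, adjusted p = 2.90e-09). EEF2K (chr16:22217603-22298554), which phosphorylates and inactivates eEF2, had 49.6, 50, 50.4 and 50.5 in siYT, against 29.3, 30 and 28.4 in siCON (0.77 ± 0.05, adjusted p = 3.75e-09). The groups did not overlap for either gene, and the siYT libraries were close to each other. The ratio of EEF2K to EEF2 signal was 0.0219 ± 0.0007 in siYT and 0.00627 ± 0.00029 in siCON, a ratio chosen after its values were seen. The higher call of EEF2K ended when a trend with transcript length was removed from each library (0.57).

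**Figure D2:**
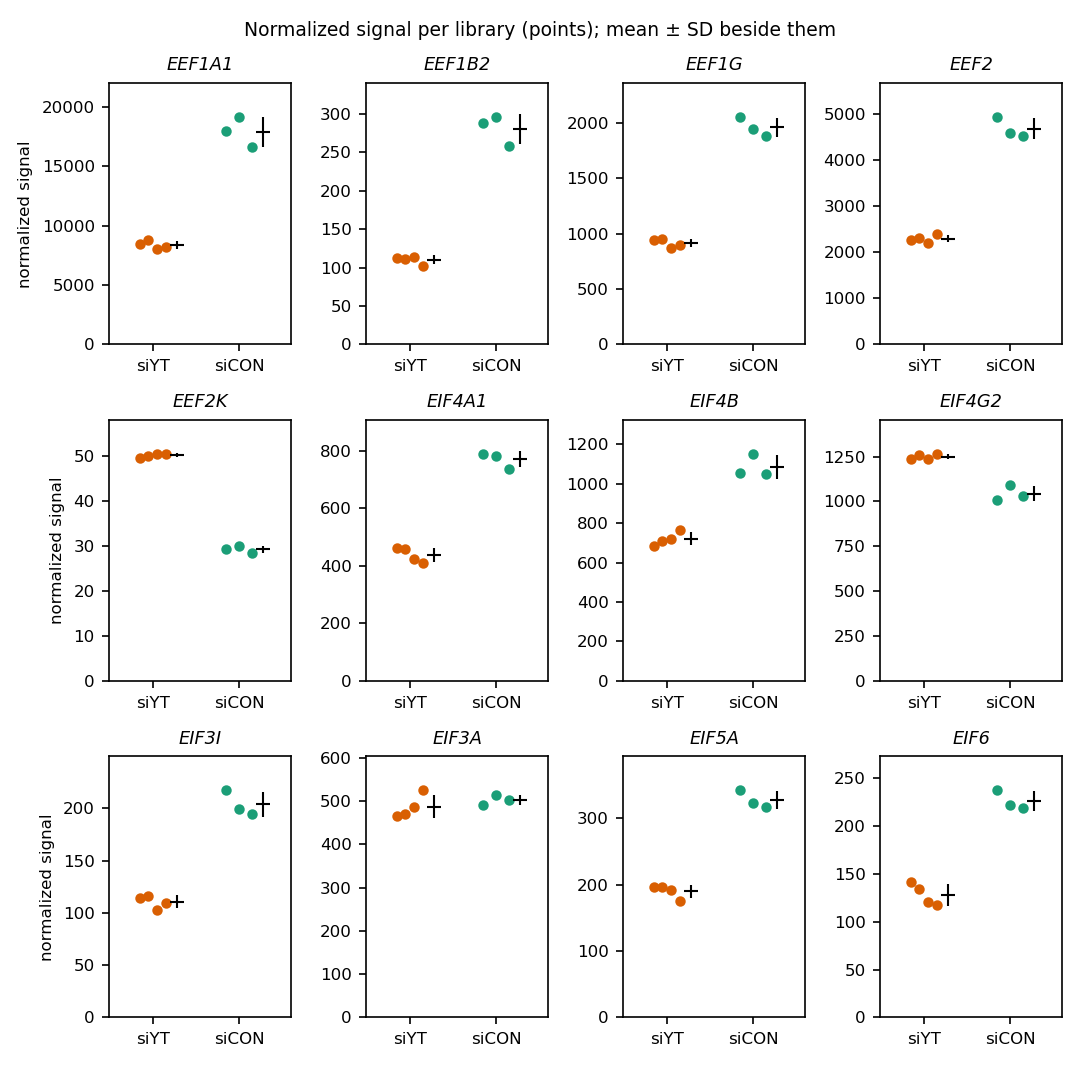
Normalized signal (y axis, from 0) of 12 translation factor genes in each siYT library (orange points, left) and each siCON library (green points, right), with the mean and ± 1 SD beside the points. For EEF1A1, EEF1B2, EEF1G and EEF2 every orange point lies far below every green point, EEF2K is higher in all 4 siYT libraries (49.6 to 50.5) than in the 3 siCON libraries (28.4 to 30), and the EIF3A points of the groups overlap.

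Among the initiation factors, 13 of 48 were called lower and 0 higher by limma (2 were higher on adjusted p alone), with a median log2 fold change of −0.42. Calls were 6 of 14 genes in eIF3 and 2 of 3 in eIF5A. They were 2 of 6 in a group of the eIF4A genes, EIF4B, EIF4H and the eIF4E transporter EIF4ENIF1. They were 1 of 4 in eIF2, 1 of 2 for eIF2A with eIF2D, and 1 of 1 for eIF6. There were 0 calls among 7 genes grouped with the start-codon factors (EIF1AD, named for an eIF1A domain, included), 5 of eIF2B, 3 of eIF4E and 3 of eIF4G. With 13.2% of all genes called lower, 0 calls in groups this small do not set them apart.

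The start-codon factors had smaller differences. Of 7 genes, 4 were lower (57.1%) and 1 was higher (14.3%) on adjusted p alone, and none reached 1.5-fold. Over all genes tested, 34.9% were lower and 34.7% higher on adjusted p alone, and 7 genes are too few to set the group apart. Among the lower genes is EIF1AD, named for an eIF1A domain (−0.20, adjusted p = 0.0223). It was −0.09 with equal library totals (adjusted p = 0.272). EIF1, which keeps the scanning ribosome open, had 268, 273, 294 and 306 in siYT, against 394, 397 and 362 in siCON (log2 fold change −0.43 ± 0.06, adjusted p = 7.08e-06), and its groups did not overlap. EIF1 shares its locus with JUP on the opposite strand, which is more abundant (mean signal 1030 against 328 over all libraries), and the sources used here do not say if counting used the strand. EIF5, the GTPase activator of eIF2, had 162, 171, 178 and 181 in siYT, against 156, 164 and 145 in siCON. The groups overlapped, and the log2 fold change of 0.16 ± 0.06 (adjusted p = 0.018) was −0.004 with the length trend removed and 0.11 without siCON C (adjusted p = 0.115).

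EIF5B, the factor that joins the subunits, was uneven within siYT. Libraries A and B had 132 and 132 and libraries C and D 181 and 166, against 158, 168 and 175 in siCON, and the difference did not pass the test in the main comparison (−0.14, adjusted p = 0.185). It passed on adjusted p without siYT C (−0.23, adjusted p = 0.0178), with the length trend removed (−0.31, adjusted p = 0.00394) and with a replicate block (−0.19, adjusted p = 0.0131). The same split of siYT A and B from C and D appeared on the second component of all genes, which held 3.7% of the variance.

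In eIF2 the subunits fell by unequal amounts. EIF2S2, the eIF2β subunit, had 183, 187, 179 and 185 in siYT, against 305, 304 and 276 in siCON (log2 fold change −0.68 ± 0.05, adjusted p = 8.01e-09), and was the only eIF2 gene called. With equal library totals it was just under the fold threshold (−0.57). EIF2S3, the eIF2γ subunit that holds the GTP and the tRNA, had 176, 173, 168 and 177 in siYT, against 257, 276 and 248 in siCON. At −0.58 ± 0.05 (adjusted p = 5.38e-08) it missed the fold threshold narrowly, and it passed without siCON A or C or without siYT A or D (−0.59 to −0.62), as well as with the length trend removed (−0.64). Its groups did not overlap. EIF2S1, the eIF2α subunit on which stress kinases act, was lower by less, with 66.3 ± 3.71 in siYT and 91.5 ± 2.19 in siCON (−0.46, adjusted p = 1.69e-06). The near-identical copy EIF2S3L was near 1 in all libraries.

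The eIF2B genes, which encode the exchange factor of eIF2, were not called. Log2 fold changes were −0.44 to −0.02, and 4 of 5 were lower on adjusted p alone (80%). Over all genes tested, 34.9% were lower and 34.7% higher by that measure, and 5 genes are few. EIF2B5, the catalytic subunit and most abundant of them, had 43.5, 43.8, 44.1 and 44.8 in siYT, against 44.4, 44.1 and 45.1 in siCON, with overlap between the groups (−0.02 ± 0.05, adjusted p = 0.803, and 0.10 with equal library totals). Its interval in the table spans many neighbours, EIF4G1 among them. EIF2B1 was 35.0 ± 1.66 in siYT and 42.2 ± 1.65 in siCON (−0.27, adjusted p = 7.94e-04).

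Of the alternative tRNA carriers, EIF2A had 91.5, 95.1, 95 and 98.9 in siYT, against 150.4, 162 and 147 in siCON (log2 fold change −0.68 ± 0.05, adjusted p = 1.01e-08). The groups were well apart, though the value was −0.57 with equal library totals and the gene overlaps SERP1 on the opposite strand. EIF2D was 51.8 ± 1.04 in siYT and 57.2 ± 2.33 in siCON and was not called (−0.14, adjusted p = 0.0236, and −0.03, adjusted p = 0.605, with equal library totals).

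eIF3, the factor with the most genes, had the most calls, though not the largest share called. Of its 14 genes, 6 were called lower (42.9%), 13 were lower on adjusted p alone (92.9%), and the median log2 fold change was −0.57. The shares over all genes tested were 13.2% and 34.9%. EIF3I (chr1:32687529-32697205), a subunit of the peripheral module with EIF3B and EIF3G, fell furthest, with 114, 116, 103 and 109 in siYT, against 217, 199 and 195 in siCON (−0.88 ± 0.06, adjusted p = 1.94e-09). EIF3L (chr22:38244875-38285414), of the octamer core, had 239.8, 249.8, 231 and 240.4 in siYT, against 407, 438 and 395 in siCON (−0.78 ± 0.05, adjusted p = 2.45e-09). EIF3D, which can bind the cap of some mRNAs itself, had 189, 193, 188 and 194 in siYT, against 317, 326 and 301 in siCON (−0.72 ± 0.05, adjusted p = 2.29e-09). In each of these genes the highest siYT library was well below the lowest siCON library.

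The other called eIF3 genes were EIF3K (log2 fold change −0.70), EIF3CL (−0.67) and EIF3H (−0.63). EIF3K, the binding partner of EIF3L, had 78.4, 77.0, 65.4 and 67.8 in siYT, against 121, 115 and 115 in siCON. Its groups did not overlap, and with the length trend removed the value was −0.30. EIF3H was 208 ± 3.92 in siYT and 322 ± 15.8 in siCON (adjusted p = 1.59e-08), and was −0.52 with equal library totals. EIF3CL and EIF3C encode nearly the same protein, so that reads cannot be placed with certainty. Together they had 319 to 326 in siYT and 459 to 497 in siCON, a ratio of 0.667, while EIF3C alone was at −0.55 and EIF3CL was −0.56 with equal totals.

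EIF3F (−0.58), EIF3E (−0.56) and EIF3M (−0.53) lay just short of the fold threshold and are named after their values were seen. EIF3E passed it without siYT D (−0.59), and EIF3F and EIF3M without siCON C (−0.62 and −0.60). With the length trend removed EIF3F (−0.77) and EIF3M (−0.67) passed it as well. EIF3E, the second most abundant eIF3 gene by mean signal, had 376, 396, 349.7 and 400.1 in siYT, against 552, 588 and 546 in siCON, with no overlap (adjusted p = 3.14e-07). EIF3A, the largest subunit and a scaffold of the core, differed least from siCON among the eIF3 genes in the main comparison. It had 466, 471, 487 and 526 in siYT, against 490.3, 513 and 504 in siCON, the groups overlapped, and the difference of −0.04 ± 0.05 (adjusted p = 0.474) became 0.07 with equal library totals. With the length trend removed it was lower, like its partners (−0.23, adjusted p = 3.01e-04). The ratio of EIF3A to EIF3I signal, chosen after the values were seen, was 4.05 to 4.81 in siYT and 2.26 to 2.59 in siCON.

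The cap-binding complex eIF4F was split between its parts. The helicase EIF4A1 (chr17:7476024-7482323) had 461, 458, 424 and 410.2 in siYT, against 790.1, 783 and 738 in siCON (log2 fold change −0.81 ± 0.06, adjusted p = 4.23e-09). Its relative EIF4A2 was lower by less, with 283 ± 3.82 in siYT and 354 ± 7.88 in siCON (−0.32, adjusted p = 1.15e-05), so that the ratio of EIF4A2 to EIF4A1 was 0.614 to 0.688 in siYT and 0.436 to 0.487 in siCON. EIF4B, which stimulates the helicase, had 686, 711, 721 and 766 in siYT, against 1055, 1153 and 1047 in siCON. The groups did not overlap, but the log2 fold change of −0.59 ± 0.06 (adjusted p = 2.56e-07) was just past the fold threshold. It fell short of it without siCON B (−0.54), without siYT A (−0.57) or siYT B (−0.58), with both of those averaged (−0.57) and with equal library totals (−0.48).

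The cap-binding protein itself differed little. EIF4E had 45.8, 46.9, 44.9 and 43.6 in siYT, against 49.0, 50.8 and 50.9 in siCON, with no overlap but a log2 fold change of only −0.15 ± 0.05 (adjusted p = 0.0192), which was −0.04 with equal library totals (adjusted p = 0.514). EIF4E2, which can hold mRNAs in a repressed state, was 66.7 ± 4.23 in siYT and 72.6 ± 1.62 in siCON (−0.12, adjusted p = 0.0657), and its direction turned with the length trend removed (0.21, adjusted p = 0.00107).

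Among the eIF4G scaffolds, EIF4G1 was 302 ± 10.6 in siYT and 381 ± 9.25 in siCON (−0.33 ± 0.05, adjusted p = 1.64e-05). EIF4G2, also called DAP5, which lacks the eIF4E-binding region and serves cap-independent initiation, had 1237, 1261, 1236 and 1267 in siYT, against 1009, 1089.8 and 1028 in siCON. It was higher in all 4 siYT libraries than in any siCON library (0.26 ± 0.05, adjusted p = 4.92e-04), under the fold threshold. The ratio of EIF4G2 to EIF4G1, chosen after the values were seen, was 3.89 to 4.28 in siYT and 2.63 to 2.88 in siCON.

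EIF5A and EIF6 were both lower. EIF5A (chr17:7210318-7215774), the hypusine-bearing protein that helps the ribosome past difficult peptide bonds, had 197, 196, 191 and 175 in siYT, against 342, 324 and 317 in siCON (−0.79 ± 0.05, adjusted p = 3.56e-09). The copy EIF5AL1, near the filter, had 0.998, 1.0, 0.918 and 1.06 in siYT, against 1.69, 2.18 and 1.94 in siCON (−0.70 ± 0.15, adjusted p = 5.01e-04), and its reads cannot be told apart from those of EIF5A with certainty. The call for EIF5AL1 ended with a pseudocount of 2 (−0.39) and the call for EIF5A with the length trend removed (−0.53). EIF5A2 was 4.14 ± 0.50 in siYT and 5.52 ± 0.22 in siCON and was not called (−0.38, adjusted p = 0.00615).

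EIF6 (chr20:33866714-33872788), which keeps the large ribosomal subunit from joining too early, had 141, 135, 121 and 117 in siYT, against 238, 222 and 219 in siCON (−0.82 ± 0.06, adjusted p = 1.67e-08). The groups were far apart, and with the length trend removed the value was −0.51. Libraries A and B were above C and D within siYT.

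The ribosomal protein genes, the nearest part of the machinery, moved the same way. Of 79 cytosolic ribosomal protein genes, 69 were called lower (87.3%) and 0 higher by limma (0 were also higher on adjusted p alone), with a median log2 fold change of −0.76. With the length trend removed, 26 were called lower. They made up 4.96 ± 0.16% of the library signal in siYT and 8.23 ± 0.41% in siCON.

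**Figure D3:**
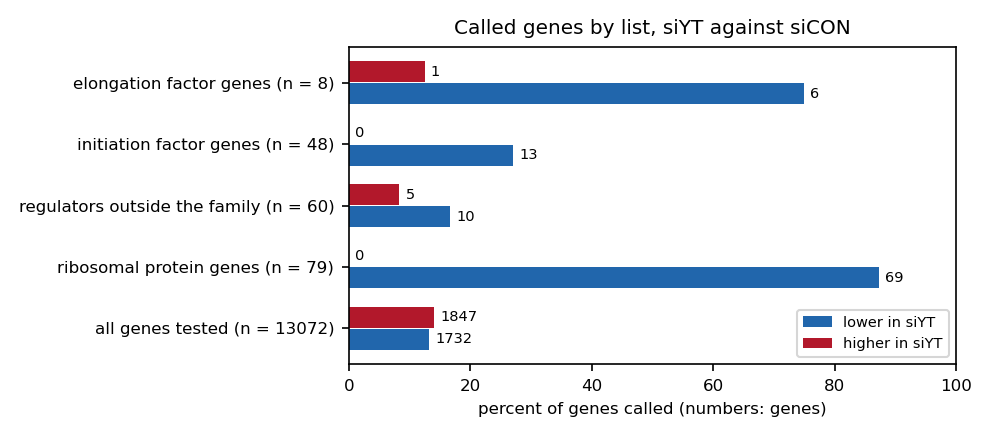
Percent of tested genes called lower (blue) or higher (red) in siYT against siCON (x axis) for 5 lists (y axis), with the number of genes beside each bar. The blue bar is longest for the ribosomal protein genes (69 of 79) and the elongation list (6 of 8, with EEF2K and EEF1E1 counted). Over all genes the bars are of similar length (13.2% and 14.1%).

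Of the other genes that act on these factors, 62 were listed by role. Of these, 60 were tested, with 10 called lower (16.7%), 5 higher (8.33%) and 45 not called, and a median of −0.11. These shares stand beside 13.2% lower and 14.1% higher over all genes, so the lower share of the list is near the background. DEPTOR and GSPT2 were below the filter. The eIF4E-binding proteins, which block the cap-binding protein until mTORC1 phosphorylates them, were the most divided group. EIF4EBP2 had 231, 224, 227 and 250.0 in siYT, against 85.3, 96.1 and 87.5 in siCON (log2 fold change 1.37 ± 0.06, adjusted p = 1.08e-11). EIF4EBP1 had 25.1, 23.4, 25.6 and 27.3 in siYT, against 53.3, 45.6 and 45.8 in siCON (−0.91 ± 0.07, adjusted p = 1.61e-08, and −0.53 with the length trend removed). The groups did not overlap for either. The summed signal of the 3 binding protein genes was 249 to 278 in siYT and 136 to 145 in siCON. That sum is not corrected for length, and the EIF4EBP2 transcript (7491 bases) is far longer than those of EIF4EBP1 (827) and EIF4EBP3 (693). Per kilobase of transcript, the mean signal of EIF4EBP2 was 31.12 in siYT and 11.97 in siCON. EIF4EBP1 had 30.7 in siYT and 58.3 in siCON, and EIF4EBP3 had 1.41 and 4.99. The sum therefore does not show that binding protein transcripts were more numerous in siYT.

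EIF4EBP3, the rarest of them, had 0.911, 0.853, 1.20 and 0.947 in siYT, against 4.25, 3.08 and 3.03 in siCON (−1.41 ± 0.15, adjusted p = 7.58e-07). The ratio of EIF4EBP2 to EIF4E, chosen after the values were seen, was 4.78 to 5.73 in siYT and 1.72 to 1.89 in siCON. PDCD4, which sequesters the helicase EIF4A1, had 451, 467, 454 and 449 in siYT, against 224, 243 and 247 in siCON (0.94 ± 0.05, adjusted p = 2.12e-10). Its groups did not overlap.

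**Figure D4:**
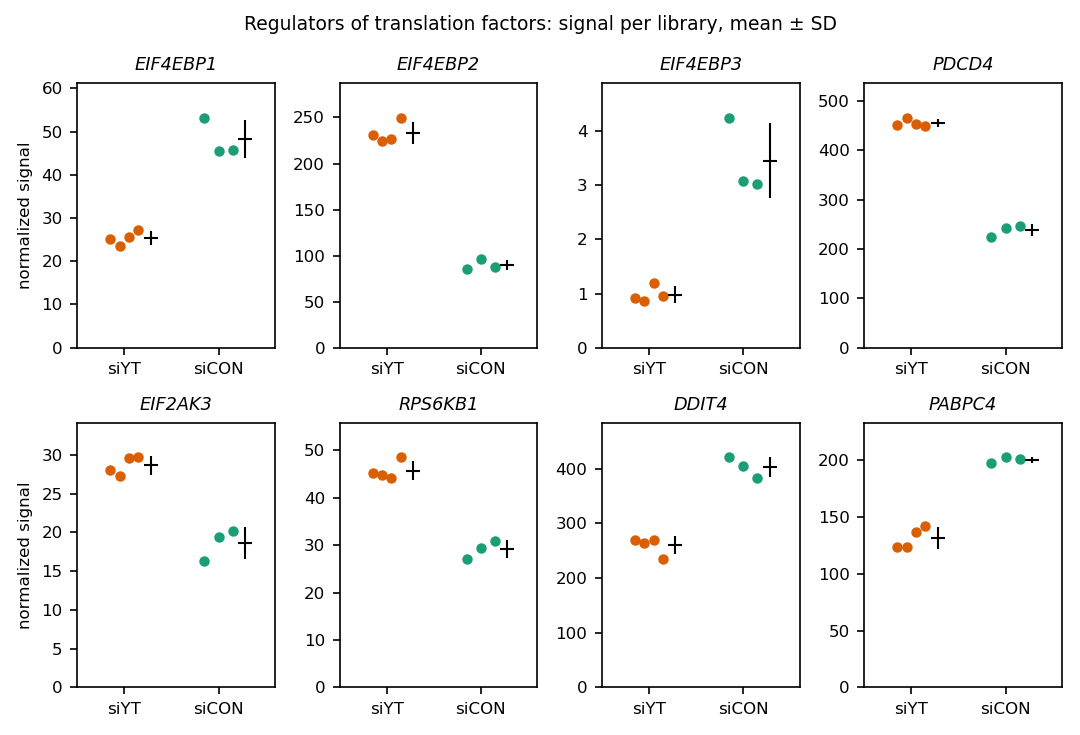
Normalized signal (y axis, from 0) of 8 regulators of translation in each siYT library (orange points, left) and each siCON library (green points, right), with the mean and ± 1 SD beside the points. EIF4EBP2 and PDCD4 are higher in every siYT library (224 to 250.0 and 449 to 467) than in any siCON library (85.3 to 96.1 and 224 to 247), while EIF4EBP1, EIF4EBP3, DDIT4 and PABPC4 are lower.

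Of the genes listed as kinases and phosphatase subunits that act on eIF2α, 1 of 7 was called, as higher (14.3%). That is near the 14.1% of all genes called higher. On adjusted p alone 4 of the 7 were higher and 2 lower, beside 34.7% and 34.9% of all genes. EIF2AK3, the stress kinase of the endoplasmic reticulum also called PERK, had 28.1, 27.3, 29.6 and 29.7 in siYT, against 16.3, 19.4 and 20.2 in siCON (0.61 ± 0.08, adjusted p = 3.36e-06). The groups did not overlap, but the call ended without siCON A (0.52), with a pseudocount of 2 (0.57) and with the length trend removed (0.50). Among the mTORC1 genes, RPS6KB1, the S6 kinase, was higher, with 45.7 ± 1.9 in siYT and 29.1 ± 1.9 in siCON (0.64 ± 0.06, adjusted p = 1.76e-07), but was 0.49 with the length trend removed. DDIT4, a stress-induced inhibitor of mTORC1 also called REDD1, was lower, with 259.9 ± 16.4 in siYT and 403 ± 18.8 in siCON (−0.63 ± 0.06, adjusted p = 9.55e-08), and was −0.52 with equal library totals.

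PABPC4, a poly(A)-binding protein, was lower (−0.61), and its call ended without siYT A or siYT B (−0.58 each) and with equal library totals (−0.50). PAIP2B, an inhibitor of that family, was higher (0.73, and 0.54 with the length trend removed). PAIP2B had 12.7, 13.5, 12.7 and 12.6 in siYT, against 7.75, 7.33 and 7.71 in siCON, with no overlap. Of the remaining called genes, all lower, ABCE1 recycles ribosomes (−0.71) and DPH5 helps build the diphthamide residue of eEF2 (−0.92). TUFM (−0.69), TSFM (−0.64), MTIF2 (−0.67) and MRRF (−0.59) are mitochondrial translation factors, of which 4 of 9 were called. The call for TSFM ended without siYT C (−0.58), and that for MRRF without siCON B (−0.54) or siYT D (−0.56). With equal library totals all 4 were under the fold threshold (−0.58 to −0.48).

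A start-site sequence was given for 47 of the 56 members, and 13 of them (27.7%) had a C at an annotated start followed by at least 4 pyrimidines. Of all genes tested with a sequence, 7.52% did, and of the 27305 genes in the promoter table, 5.14%. Of the 13 members, 7 were called lower and 0 higher, with a median log2 fold change of −0.59, and the 34 others had 6 lower and 1 higher with a median of −0.35. Over all genes tested, the members included, 20.4% of those with such a start were called lower and 12% of those without. Called higher were 11.2% of those with such a start and 14.2% of those without. EEF1A1, EEF2, EEF1B2, EIF3D and EIF3K are among the 7, while EIF2D and EIF4A2 carry the letters and were not called. EEF1G and EIF3I were called lower as well and start with A in the promoter table, that of EEF1G being followed by CTTT. EEF1B2 and EIF4G2 have a further annotated start without the letters.

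On a list of 13 members known as TOP mRNAs from general knowledge, 9 were called lower and 0 higher, with a median of −0.63. The 43 other members had 10 lower, 1 higher and a median of −0.38. Sequences were given for 8 of the 13, and 7 of those had the letters. The exception was EEF1G, so it is not an example of a member outside the known TOP mRNAs. The TEAD motif GGAATG was read on both strands, as GGAATG or CATTCC, from 250 bases before to 50 after the start. It was in 8 of the 47 members with a sequence (17.0%). It was in 15.1% of the tested genes with a sequence and in 16.7% of all genes in the promoter table. Neither match says that a factor acts there. No start-site sequence was used for EIF2S2, EIF3A, EIF3CL, EIF3E, EIF3G, EIF3H, EIF3L, EEF1A2 and EEF1D.

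Transcript length moved with the change. Over the 56 members the Spearman correlation of log2 fold change with the length of the canonical transcript was 0.351, and over 12398 genes it was 0.303. These are descriptions across genes in the same libraries, which share depth and normalization. Of 17 members with transcripts under 2000 bases 9 were called lower (median −0.70), of 26 from 2000 to 4000 bases 10 were (−0.50), and of 13 longer ones 0 were and EEF2K was higher (−0.19). Among all genes, 25.5% of the shortest class, 11.1% of the middle class and 7.20% of the longest were called lower. With the length trend removed from each library, an alternative added after the data were seen, 18 members were called lower and 0 higher, and the median was −0.40. Over all genes 1404 were then called lower and 1627 higher, against 1732 and 1847 in the main comparison. EIF3K, EIF5A, EIF6 and EEF1D lost the lower call, and EIF2S3, EIF3F and EIF3M gained it.

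**Figure D5:**
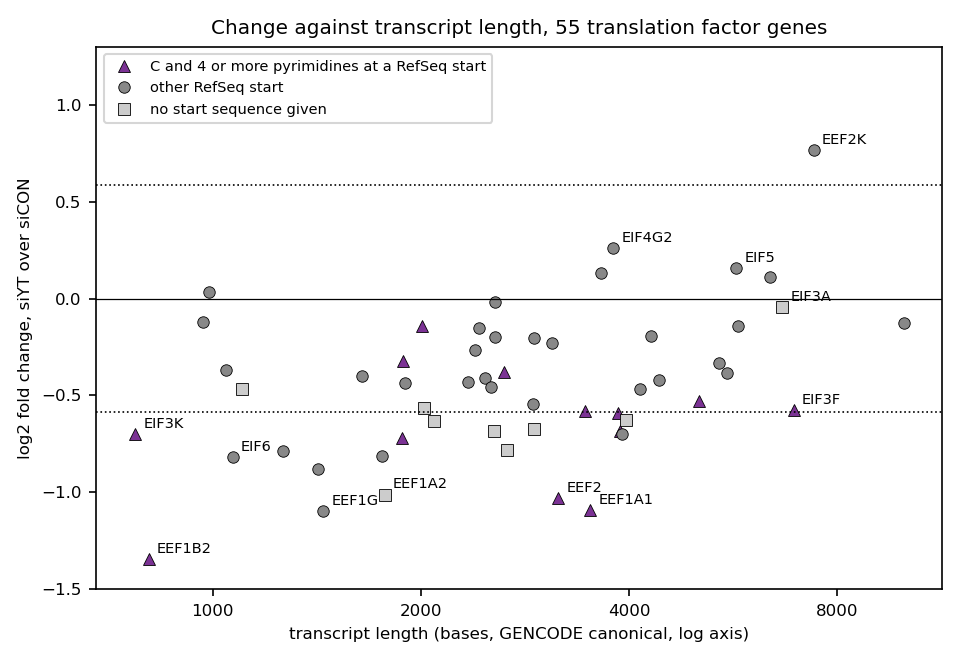
Log2 fold change of siYT over siCON (y axis) against the length of the canonical transcript in bases (x axis, log scale) for 55 translation factor genes. Purple triangles have a C and at least 4 pyrimidines at an annotated start, grey circles do not, light squares have no sequence, and dotted lines mark a 1.5-fold change. EEF1A1 and EEF2 lie low for their length, EEF2K lies above 0 at the long end, and triangles lie among both short and long transcripts.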

How the data were processed

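Polyadenylated RNA of 7 libraries was sequenced from TruSeq mRNA libraries. Per the submitters' processing notes the authors trimmed with cutadapt 1.18, aligned to hg19 with STAR 2.6.1 and used Partek 8.0.19.0819, while the methods name Trimmomatic and Partek 7.0. Genes under 8 reads were removed, and the deposited values are a TMM-normalized signal per gene, near CPM. Whole reads were not recovered (82.3% of low values within 0.05 of whole multiples), so no count model was fitted. The authors' second file, with p-values, q-values, a ratio, fold changes and group means, was not used.

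The table had 18478 entries, of which 1792 repeats with identical values were dropped. Genes with a mean of at least 1 were tested with limma 3.58.1 in R 4.3.3 (empirical Bayes with a mean-variance trend, no covariate) on log2(signal + 0.5), which understates the change of low genes, and the procedure was tested on simulated data. The approximate read number is total over lowest value. Gene positions are on hg19, 1-based.

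The members and lists were chosen with earlier results of these data known. Named genes were the targets, every called member, the 2 most abundant of each role and every called regulator; any other was named after its values were seen. The study's reporting summary has control and treatment wells plated together, so replicates may be wells of 1 plating, and the spread that p-values rest on is that among these samples and may be technical. siYT A and B were more alike (SD of the log2 difference 0.079) than other pairs (0.123 to 0.154), and both were kept. Alternatives were other pseudocounts (0.1, 2), filters (none, 5) and scalings, no trend, a replicate block, averaging siYT A and B, leaving out each library, counting the binding proteins as members and removing the length trend.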

Additional observations from a re-analysis of the deposited data

Results flagged for a closer look

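In 3 of 70 genes examined (55 members and 15 called regulators), a single siYT library stood apart from the other 3 by a gap larger than Dixon's 95% critical value for 4 values allows, relative to the range. Chance gives about 1 in 20 groups. EEF1A2 was 0.739 in siYT C, against 0.658 to 0.667 in the other siYT libraries. DDIT4 was 236 in siYT D, against 265 to 270.1 in the others. PAIP2B was 13.5 in siYT B, against 12.6 to 12.7. In all 3 genes the library set apart was still on the same side of every siCON library.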

How the results depend on the processing

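Of 338 values of the 20 called members under the alternatives, 321 kept direction and call, 17 kept direction only and 0 reversed, and 8 genes kept their call throughout. Equal library totals ended the calls of EIF2S2, EIF2A, EIF3CL, EIF3H, EIF4B and EEF1D, and left 4 regulators called lower and 8 higher. On adjusted p alone, 44 members were lower and 3 higher, 4564 genes were lower and 4537 higher, and 25 regulators were lower and 15 higher. With the length trend removed, 0 members and 2 regulators were higher, and 26 ribosomal protein genes lower. Over all genes 1404 were lower and 1627 higher in that setting. Counting the eIF4E-binding proteins made 2 members higher. The members' median was −0.46 with a pseudocount of 0.1, −0.41 with 2, −0.32 with equal totals and −0.40 with the length trend removed, and −0.46 to −0.43 when libraries were left out. Members called lower numbered 18 to 22 then. Reversals were EIF5 (−0.0044), EIF2B5 (0.0092), EIF4E2 (0.21) and EIF4G3 (−0.073) with the length trend removed, and EIF2B5 (0.10) and EIF3A (0.068) with equal totals. Causes were not tested. Same-lettered libraries deviated together only weakly (correlations 0.16, 0.03 and 0.18), so letters were not taken as pairs; with a replicate block, 21 members were called lower, and over all genes 1710 were lower and 1818 higher. Depth limits EEF1A2, EIF5AL1 and EIF2S3L, which lie near a signal of 1.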

Other observations

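The pseudogenes left out by the naming rule held little signal apart from those of EEF1A1. EEF1A1P5 had 94.5, 86.2, 74.6 and 82.4 in siYT, against 193, 187 and 173 in siCON, and EEF1A1P6 had 25.7, 26.1, 19.9 and 23.8 in siYT, against 52.2, 48.1 and 42.9 in siCON. EIF3EP1 had 2.16, 2.35, 3.66 and 3.22 in siYT, against 2.07, 1.48 and 2.16 in siCON, and its groups overlapped at their edges. These copies were named after their values were seen, and reads of a parent gene and its copies cannot be told apart with certainty.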
